A study of Mus musculus with 29 samples.

Results

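Pou4f3 binding sites were compared between embryoid bodies that expressed Pou4f3 by itself and embryoid bodies that expressed it together with Gfi1. The sites came from the lists of Pou4f3 peaks of the iPou4f3 and iG+P lines, obtained by chromatin immunoprecipitation and sequencing (ChIP-seq), which locates the DNA that a protein occupies. Windows of 300 bp centred on the peak summits were joined wherever they shared at least 1 bp, and each joined window was called a site. The 22433 peaks of iPou4f3 and the 32632 peaks of iG+P gave 40747 sites. Of these, 13866 held a peak of both lines (shared sites), 8514 held a peak of iPou4f3 only and 18367 held a peak of iG+P only. The whole series holds 175162 peaks in 9 lists.

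Both lines were mouse embryonic stem cells made from the parental line A2loxCre, with a doxycycline-inducible cassette that ended in the fluorescent reporter Venus. The cassette of iPou4f3 carried Pou4f3 and Venus, and that of iG+P carried Gfi1, Pou4f3 and Venus joined by self-cleaving 2A peptides. Embryoid bodies (clumps of stem cells that differentiate in suspension) were treated with 2 µg/ml doxycycline for 48 h from day 4 and were collected on day 6. Pou4f3 was precipitated through its MYC tag in 2 libraries of each line, with 2 input libraries of each line, and Gfi1 carried no tag. No sorting for Venus before fixation was described. The level of Pou4f3 protein in the 2 lines was not measured by these files, and both lines still have the endogenous genes. The Pou4f3 lists of iP+A (Pou4f3 and Atoh1) and iGPA (Gfi1, Pou4f3 and Atoh1), also with 2 libraries each, served as a readout that took no part in defining the classes.

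Pou4f3 (Brn3c) is a transcription factor with a POU-specific domain and a homeodomain, and is required for the differentiation and survival of inner ear hair cells. Factors of the Brn3 family bind AT-rich sites, in which short AT half-sites flank a central spacer. Gfi1 is a zinc finger protein with an N-terminal SNAG domain that recruits histone-modifying corepressors, and it is required for hair cell survival and for several blood lineages. The comparison asks whether the presence of Gfi1 goes with a different set of Pou4f3 sites.

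The authors called peaks on merged replicates. There was therefore no spread between replicates, and no p-value was computed. Shares are given with exact Clopper-Pearson 95% intervals in parentheses, which cover counting error only, since neighbouring sites are not independent. Each class is defined by whether a peak passed the authors' filters in a list, so absence of a peak is not absence of binding. The commonest local background recovered from the deposited values was 7.41 reads in iPou4f3 and 8.14 in iG+P, and the fewest reads at a summit were 19 and 20. Read totals were not used here.

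The sequences at the strongest sites of each class are shown first, since they carry much of what distinguishes the classes. Each line gives 100 bases (30 where an annotated UTR lay nearby) of the plus strand of mm9 around the summit, and capitals mark every match to ATNATTNAT on either strand, a pattern called the ATN core below. The strongest shared sites, by the lower of their fold enrichments in the 2 lists, were these.
Shared, Gm13203 (chr4:148116913-148117012): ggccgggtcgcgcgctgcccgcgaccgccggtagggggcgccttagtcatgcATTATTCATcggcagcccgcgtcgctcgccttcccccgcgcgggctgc
Shared, Gm11574 (chr11:96912714-96912813): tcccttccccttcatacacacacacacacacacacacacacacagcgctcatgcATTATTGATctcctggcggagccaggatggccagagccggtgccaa
Shared, Fcho1 (chr8:74233837-74233866): ctattatttgcATTATTTATgtaacccgcc
Shared, Coro1b (chr19:4148063-4148162): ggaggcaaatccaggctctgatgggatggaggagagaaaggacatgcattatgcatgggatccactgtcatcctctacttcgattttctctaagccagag
Shared, Megf11 (chr9:64502631-64502730): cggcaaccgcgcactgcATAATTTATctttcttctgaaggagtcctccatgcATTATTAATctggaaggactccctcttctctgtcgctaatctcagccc

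Fold enrichment, the authors' ratio of reads at the summit to the local background, was close in both lists at these 5 sites. It was 72.4 in iPou4f3 and 69.0 in iG+P at the site 29.2 kb from the start of Gm13203, and 49.2 and 58.0 at the promoter of Gm11574. At Fcho1, which encodes an adaptor of clathrin-mediated endocytosis, it was 40 and 35.6. At Coro1b, which encodes an actin regulator, it was 43.7 and 34.0, and at Megf11, which encodes a transmembrane protein with EGF-like repeats, 31.9 and 31.7. All 5 sites also held a Pou4f3 peak in iP+A and in iGPA. The core lay within the printed window in 4 of the 5, and the exception was Coro1b.

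The strongest sites of each line alone, apart from Ell, had fold enrichments of 13.3 or less and were of mixed sequence. They are shown because only some hold a core.
iPou4f3 only, Ell (chr8:73063458-73063557): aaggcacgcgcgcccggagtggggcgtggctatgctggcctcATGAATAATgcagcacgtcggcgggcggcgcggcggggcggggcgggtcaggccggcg
iPou4f3 only, Ipo13 (chr4:117587739-117587838): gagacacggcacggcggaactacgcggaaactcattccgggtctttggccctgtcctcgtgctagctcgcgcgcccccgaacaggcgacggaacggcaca
iPou4f3 only, Capn2 (chr1:184431175-184431274): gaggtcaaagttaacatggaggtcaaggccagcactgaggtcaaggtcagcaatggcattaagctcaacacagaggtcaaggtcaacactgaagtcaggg
iPou4f3 only, AL831766.1 (chr2:167881135-167881234): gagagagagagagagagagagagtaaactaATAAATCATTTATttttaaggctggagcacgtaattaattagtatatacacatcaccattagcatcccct
iG+P only, Ell (chr8:73063071-73063170): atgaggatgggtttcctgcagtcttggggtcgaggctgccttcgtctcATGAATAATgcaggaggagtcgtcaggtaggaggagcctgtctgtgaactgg
iG+P only, Tbl1xr1 (chr3:21512995-21513094): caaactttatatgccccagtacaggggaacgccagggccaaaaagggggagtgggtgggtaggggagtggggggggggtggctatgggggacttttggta
iG+P only, Olfr173 (chr16:58784984-58785083): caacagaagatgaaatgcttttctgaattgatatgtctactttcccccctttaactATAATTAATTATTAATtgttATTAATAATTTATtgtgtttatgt
iG+P only, Sec16b (chr1:159807421-159807520): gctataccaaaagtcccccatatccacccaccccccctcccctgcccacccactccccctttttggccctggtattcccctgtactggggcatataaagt
iG+P only, Cpsf6 (chr10:116800234-116800333): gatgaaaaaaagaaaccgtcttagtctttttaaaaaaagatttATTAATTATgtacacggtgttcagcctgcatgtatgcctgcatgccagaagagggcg

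The strongest site of iPou4f3 only and the strongest site of iG+P only belonged to the same promoter. Ell encodes an elongation factor of RNA polymerase II. The iPou4f3 peak had a fold enrichment of 34.5 with its summit at -66 bp from the start, and the iG+P peak had 20.7 at -453 bp. The summits lay 387 bp apart, and each stood over the same run of letters, ATGAATAATgca. With 300 bp windows this promoter therefore counted once in each single-line class, although both lines had a strong peak in it.

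The other leading sites differed in kind. The iPou4f3-only sites at Ipo13 (fold enrichment 11.4), which encodes a nuclear transport receptor, at Capn2 (9.15), which encodes a calpain protease, and at 1700034F02Rik (8.64) held no core in the bases around the summit. The site near AL831766.1 (7.73) held 2 overlapping cores. Among iG+P-only sites, those nearest to Tbl1xr1 (13.3) and Sec16b (8.16) held no core and lay at -463 kb and 339 kb from those starts, and the former also held a Gfi1 peak in iGPA. Their windows were copies of a related sequence on opposite strands, with a longest identical stretch of 28 bases and 55 of 88 words of 8 letters in common, against 0 on the same strand. The sites near Olfr173 (8.54) and Cpsf6 (7.88) held 5 cores and 1 core, and both carried Pou4f3 peaks in iP+A and iGPA.

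Sharing followed peak strength. Shared sites made up 62.0% (61.3 to 62.6) of the 22380 sites with an iPou4f3 peak and 43.0% (42.5 to 43.6) of the 32233 sites with an iG+P peak. Among iPou4f3 sites with a −log10 p under 6, 31.7% (30.4 to 33.1) were shared, and among those of 30 and over, 98.8% (98.2 to 99.2). The same range of iG+P sites ran from 21.3% (20.5 to 22) to 96.4% (95.4 to 97.3). In each band of −log10 p the iPou4f3 sites were shared more often than the iG+P sites, but they were matched against the longer list. At equal list length the total shares were 52.6% and 52.7%, near each other by construction. The strongest peaks absent from the other list were few. There were 76 iPou4f3-only sites and 283 iG+P-only sites with a −log10 p of at least 20, against 2236 shared sites that reached it in both lists.

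**Figure D1:**
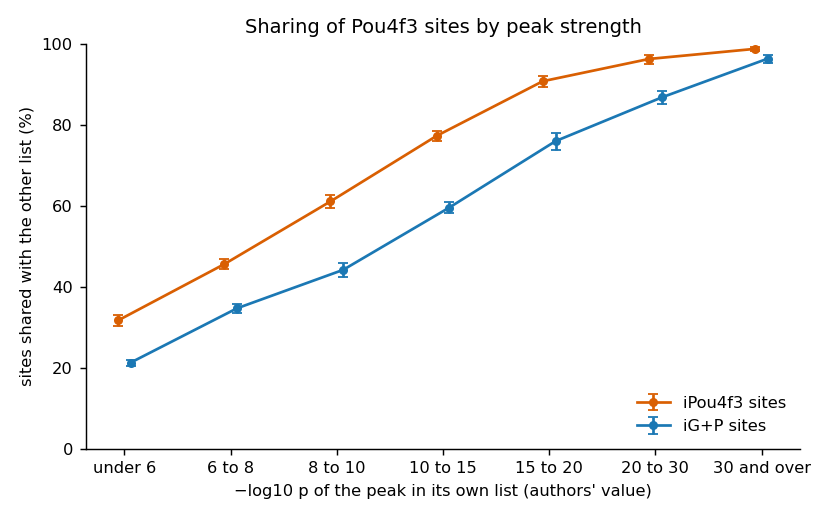
Share of Pou4f3 sites held in common by iPou4f3 and iG+P, against the −log10 p of the peak in its own list. The vertical axis gives the percent of sites shared with the other list, points are bands of −log10 p and bars are exact 95% intervals. Sharing climbs from 31.7% to 98.8% of iPou4f3 sites and from 21.3% to 96.4% of iG+P sites.

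The rule itself ties strength to class, so the folds are given as a description. Median fold enrichment was 3.80 in iPou4f3 and 3.61 in iG+P at shared sites. It was 2.97 at iPou4f3-only sites and 2.85 at iG+P-only sites. At shared sites the log2 ratio of iG+P to iPou4f3 fold enrichment had a median of -0.08, and ran from -0.72 at the lower to 0.56 at the upper 5% of sites. Only 0.440% of the shared sites lay above 1 on this log2 scale and 1.67% below -1. The summits of the 2 lists at a shared site lay a median of 23.0 bp apart.

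Some single-line sites had a near neighbour in the other list. A kept peak of the other list lay within 1 kb of 16.6% (15.8 to 17.4) of iPou4f3-only sites and 11.8% (11.3 to 12.3) of iG+P-only sites. With peaks that the authors called but did not keep, 20.5% (19.6 to 21.4) and 16.1% (15.6 to 16.7) had some sign of the other line nearby.

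A part of the iG+P-only sites lay in a few stretches of the genome. Sites were counted in bins of 1 Mb, with a median of 13 sites in a bin, and the 34 bins with 60 or more sites are called dense bins here, a threshold set after the counts were seen. Dense bins held 21.8% (21.2 to 22.4) of iG+P-only sites, 5.98% (5.48 to 6.50) of iPou4f3-only sites and 5.53% (5.16 to 5.93) of shared sites. The bins were chosen by counts of these same sites, of which iG+P-only sites were the largest class, so the shares are a description. A run on chromosome 14 from 3 to 9 Mb held 1477 iG+P-only sites, 197 iPou4f3-only sites and 274 shared sites. A second run on chromosome 4 from 145 to 148 Mb held 656, 86 and 164. Prl2c3, a prolactin-family gene on chromosome 13, was the nearest start of 90 iG+P-only sites, the most of any gene, and its relative Prl2c2 of 52.

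The same bins were rich in peaks of other lists, Atoh1 lists included. They held 14.8% of the iG+P peaks and 14.7% of the iP+A Pou4f3 peaks, but 5.70% of the iPou4f3 peaks and 4.05% of the iGPA Pou4f3 peaks. They held 26.5% of the iAtoh1 peaks, from a line without a Pou4f3 transgene, and 10.9% to 18.5% of the other Atoh1 lists. The ATN core was found at 7.16% (6.38 to 8.00) of the iG+P-only sites in dense bins and at 6.67% of the windows 1 kb to either side. Each share of peaks in dense bins came from a single list called on merged replicates, and the lines differed in Atoh1 as well as in Gfi1. The median local background of the peaks in these bins was 9.21 reads in iPou4f3 and 8.14 in iG+P, against 7.41 and 8.14 elsewhere. It was more than 2 times the commonest background at 15.0% and 4.24% of those peaks, against 0.492% and 0.439% elsewhere. The part of these bins and of their background in the difference between the lines was not tested. Results below are given without these bins as well. Of 283 iG+P-only sites with a −log10 p of at least 20, 127 lay in these bins and 26 in a short tandem repeat, against 5 and 1 of the 76 iPou4f3-only sites.

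Distance to a transcription start separated the iPou4f3-only sites from both other classes. A start lay within 1 kb of 44.2% (43.1 to 45.2) of iPou4f3-only sites, 20.5% (19.9 to 21.2) of shared sites and 15.7% (15.2 to 16.2) of iG+P-only sites. Outside dense bins the shares were 45.9%, 20.9% and 17.6%. The median distance to the nearest start was 2.44 kb, 12.7 kb and 11.6 kb in the same order. Introns held 23.6% of iPou4f3-only, 36.8% of shared and 37.5% of iG+P-only sites, and 30.3%, 40.7% and 44.2% were intergenic. Coding exons held under 1% of each class outside promoters, at 0.904% of iPou4f3-only, 0.462% of shared and 0.893% of iG+P-only sites.

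The promoter share of iPou4f3-only sites did not rest on weak peaks. It was 38.9% of those with a −log10 p under 6, 48.5% of those from 10 to 15 and 60.9% of the 23 sites of 30 and over. The promoter share of iG+P-only sites went the other way, from 18.7% under 6 to 9.84% of the 61 sites of 30 and over. Base composition followed position. The median GC content of the 250 bp around the summit was 48.8% at iPou4f3-only sites and 42.4% in each other class. Within 1 kb of a start, outside dense bins, it was 67.6%, 66.4% and 65.6% for iPou4f3-only, shared and iG+P-only sites, and farther away it was 41.2% in all 3 classes.

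The ATN core set the shared sites apart. It was found in the 250 bp around 57.6% (56.8 to 58.5) of shared summits, 31.5% (30.9 to 32.2) of iG+P-only summits and 22.4% (21.5 to 23.3) of iPou4f3-only summits. In windows 1 kb to either side it was found at 5.82%, 6.10% and 5.08%. A pattern written for the Pou4f family, ATAATTAAT with 1 mismatch allowed, gave 52.8%, 34.3% and 25% against 10.3%, 10.5% and 9.53% in the flanks. It overlaps the ATN core, which was chosen after the frequent words at the summits had been seen, and both strands were searched for each.

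Within 1 kb of a start the iPou4f3-only sites held no more cores than their surroundings. Outside dense bins, 2.69% (2.19 to 3.27) of the 3675 iPou4f3-only promoter sites held one, against 3.58% (3.17 to 4.03) of their flanks. These flanks were not matched in base content, with a median GC content of 47.2% against 67.6% at the summits. For shared promoter sites the share with a core was 17.9% (16.5 to 19.4) against 3.87% of flanks. For iG+P-only promoter sites it was 8.91% (7.83 to 10.1) against 3.66%. Farther than 1 kb from a start the single-line classes came close to each other, at 40.6% (39.1 to 42.1) of iPou4f3-only and 44.6% (43.7 to 45.5) of iG+P-only sites, and shared sites stood at 70.6% (69.7 to 71.5). The lower overall share of the core in iPou4f3-only sites than in iG+P-only sites thus went with their promoter share, and the intervals of the distal shares still did not overlap.

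**Figure D2:**
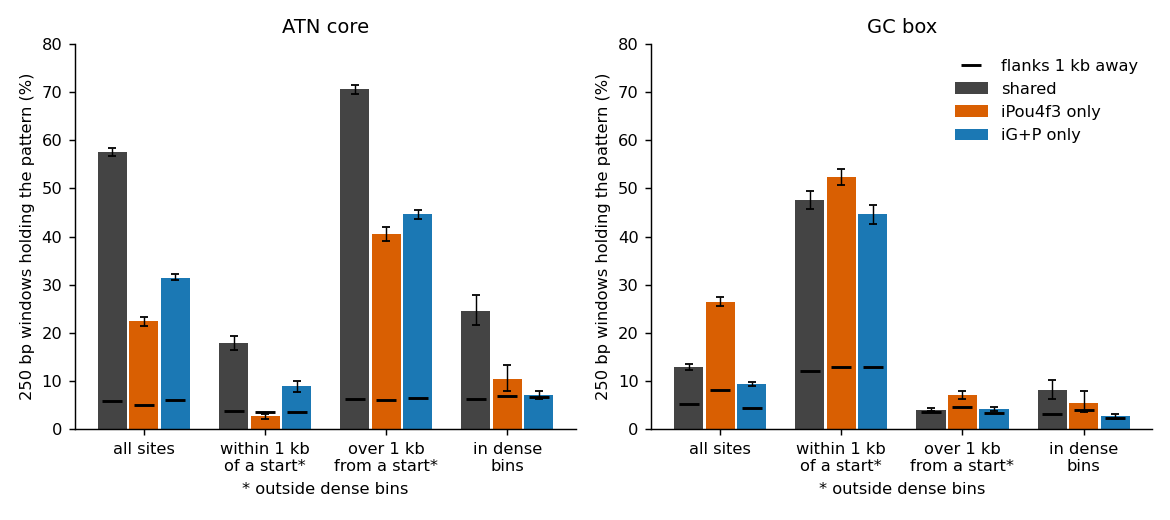
Share of 250 bp windows around the summit that hold the ATN core (left) or the GC box (right), by class and position. The vertical axes give percent, bars are shares with exact 95% intervals, black dashes are the flanking windows 1 kb to either side, and an asterisk marks sites outside dense bins. The core stands at 70.6% of distal shared sites and at 2.69% of iPou4f3-only promoter sites, below their flanks at 3.58%. Those flanks had a lower GC content than the summits.

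Where present, the core lay closest to the summit at shared sites and was spread more widely around it at single-line sites. Its median distance from the summit was 12.0 bp at shared sites, 23.0 bp at iPou4f3-only sites and 25 bp at iG+P-only sites. It lay within 25 bp at 74.1%, 54.2% and 51.1% of the sites that held it, and within 50 bp at 90.1%, 75.4% and 74.5%. At shared sites the share with a core rose with strength, from 35.2% (33.2 to 37.2) under a −log10 p of 6 in iG+P to 76.6% (74.5 to 78.6) at 30 and over. The iPou4f3-only sites showed little change, from 20.6% (19.3 to 22.1) to 26.1% (10.2 to 48.4) over the same bands. The iG+P-only sites went from 29.4% (28.4 to 30.3) under 6 to 11.5% (4.74 to 22.2) at 30 and over. Outside dense bins their share first rose to 48.7% between 10 and 15 and then fell to 14.6% (5.57 to 29.2) of the 41 strongest.

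**Figure D3:**
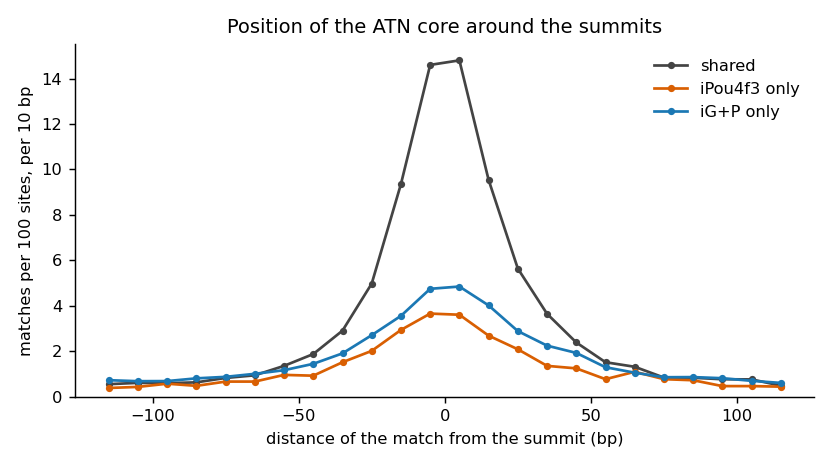
Position of the ATN core around the summits of the 3 classes. The horizontal axis is the distance of a match from the summit in bp and the vertical axis the matches per 100 sites in steps of 10 bp. All 3 classes peak at the summit, with median distances of 12.0 bp in shared, 23.0 bp in iPou4f3-only and 25 bp in iG+P-only sites.

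The forms of the core are given as shares of all sites of a class, so they also follow how many sites held a core. ATTATTTAT was the most frequent form in every class. A core was held by 7993 shared, 1909 iPou4f3-only and 5794 iG+P-only sites. Of these, 1998, 508 and 1602 held ATTATTTAT, and 1873, 260 and 721 held ATTATTCAT. At shared sites the most frequent forms were ATTATTTAT, at 14.4% of sites, and ATTATTCAT, at 13.5%. ATTATTCAT was found at 3.93% of iG+P-only and 3.05% of iPou4f3-only sites, and ATTATTTAT at 8.72% and 5.97%. Flanks held either form at 1.04% or less in every class. Forms with C or G at the first free position were the rarest, at 1.56% or less of shared sites.

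Longer words are given to show what stood next to the core. Words of 12 letters were ranked by their excess over the flanks in the 100 bp at the summit, without sites in a tandem repeat. The word that led this ranking in each class was as follows, with capitals at the core.
Shared: ATGAATAATgca
iPou4f3 only: ataaataaataa
iG+P only: ATAAATAATtta
Most frequent extended form at shared sites: attgcATTATTCATga

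The shared word ATGAATAATgca was present at 992 shared sites, or 7.18%, and at 0.0181% of their flanks. It is also the run under both Ell summits. The leading iPou4f3-only word is a plain repeat of taaa units, held by 1.49% of sites and 0.331% of flanks, and the leading iG+P-only word was held by 1.07% and 0.0110%. The taaa repeat was itself more frequent at iG+P-only sites, at 1.34%, but was also found at 0.338% of their flanks. The word ATGAATAATgca was found at 0.673% of iPou4f3-only and 0.957% of iG+P-only sites. None of the 10 leading words of either single-line class was as frequent there as the first word was in the shared class.

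The form of 16 letters marked a group of sites that were alike beyond the core. It has 1094 copies in the mm9 genome, of which 732 (66.9%) lay in shared sites, 105 (9.60%) in iG+P-only sites and 38 (3.47%) in iPou4f3-only sites. Aligned on it, 25 of the 60 positions outside it carried the same letter in at least 80% of the sites. Examples from each class are shown so that the likeness beyond the core can be read.
Shared, Tmem181b-ps (chr17:6449048-6449147): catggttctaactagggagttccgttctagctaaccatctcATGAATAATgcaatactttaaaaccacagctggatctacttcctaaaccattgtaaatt
iPou4f3 only, D730003I15Rik (chr1:193070819-193070918): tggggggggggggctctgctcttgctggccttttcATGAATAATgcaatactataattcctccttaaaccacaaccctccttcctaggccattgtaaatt
iG+P only, U6 (chr16:40668448-40668547): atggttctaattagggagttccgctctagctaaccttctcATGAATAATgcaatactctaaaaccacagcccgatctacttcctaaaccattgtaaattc

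Sites with this form were shared more often than others. Of 874 sites that held it, 83.8% (81.1 to 86.1) were shared, against 49.0% (48.2 to 49.8) of the sites with a core but not this form and 23.4% (22.9 to 24.0) of those without a core. The shared ones had median fold enrichments of 5.71 in iPou4f3 and 5.21 in iG+P, lay a median of 27.9 kb from a start, and 1.64% were within 1 kb of one. The form was read from the shared sites themselves, so its share among them is a description. The other Pou4f3 lists took no part in that choice, but shared sites in general held their peaks more often than single-line sites. A Pou4f3 peak of iP+A was present at 69.5% (66.1 to 72.9) of the shared sites with the form, and one of iGPA at 93.3% (91.2 to 95). Of the 105 iG+P-only sites with the form, 15.2% (8.97 to 23.6) held an iP+A peak and 51.4% (41.5 to 61.3) an iGPA peak. For the 37 iPou4f3-only sites with the form, the shares were 10.8% (3.03 to 25.4) and 40.5% (24.8 to 57.9).

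The GC box GGGCGG, bound by Sp and Klf factors, was found at 26.5% (25.6 to 27.5) of iPou4f3-only, 12.9% (12.4 to 13.5) of shared and 9.45% (9.03 to 9.88) of iG+P-only sites. Within 1 kb of a start, outside dense bins, it was found at 52.4%, 47.6% and 44.7%, against 12.0% to 13% of the flanks. Those flanks had a median GC content of 46.4% to 47.4%, below that at the summits. Farther away the GC box was found at 7.07% (6.32 to 7.87) of iPou4f3-only, 4.10% of shared and 4.22% of iG+P-only sites. The ETS element CCGGAAG was found at 4.71%, 2.38% and 1.61% of sites, and the CRE, TGACGTCA, at 0.623%, 0.296% and 0.234%. The Gfi1 element, AATCACAGC or AATCACTGC, was at the level of the flanks in every class, with 0.528% (0.428 to 0.644) of iG+P-only sites against 0.506%, 0.563% (0.445 to 0.702) of shared sites against 0.512%, and 0.493% (0.356 to 0.666) of iPou4f3-only sites against 0.523%. The octamer ATGCAAAT, the site of other POU factors, was found at 2.24%, 2.10% and 1.37% of iG+P-only, shared and iPou4f3-only sites and at 2.06%, 1.86% and 1.67% of the flanks. The E-box CANNTG was found at 69.7%, 62.4% and 71.3% of shared, iPou4f3-only and iG+P-only sites and at 72.9%, 70.3% and 72.5% of their flanks.

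The Pou4f3 lists of iP+A and iGPA differ from each other by Gfi1, as iPou4f3 and iG+P do, but in the presence of Atoh1. A Pou4f3 peak was present at 59.9% (59.1 to 60.7) of shared sites in iP+A and 70.7% (69.9 to 71.4) in iGPA. At iPou4f3-only sites the shares were 18.1% (17.3 to 18.9) and 14.3% (13.6 to 15.1), and at iG+P-only sites 15.8% (15.3 to 16.4) and 19.7% (19.1 to 20.2). The difference of iGPA minus iP+A was therefore -3.76 percentage points (-4.74 to -2.78) at iPou4f3-only sites and 3.81 (3.10 to 4.52) at iG+P-only sites, with 10.8 (9.88 to 11.7) at shared sites. Most single-line sites had no peak in either list, at 73.1% of iPou4f3-only and 70.0% of iG+P-only sites, against 19.6% of shared sites.

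The sign of these differences depended on where the sites lay. In dense bins iGPA had fewer peaks than iP+A in every class, by -19.3 points at shared, -15.9 at iPou4f3-only and -17.7 at iG+P-only sites. Outside them the differences were 12.5, -2.99 and 9.80. At promoters outside dense bins all 3 classes were lower in iGPA, by -7.20 (-9.34 to -5.05) at shared, -7.81 (-9.25 to -6.37) at iPou4f3-only and -3.37 (-5.15 to -1.58) at iG+P-only sites. Farther than 1 kb from a start they were 17.8 (16.8 to 18.7), 1.11 (-0.289 to 2.51) and 12.6 (11.7 to 13.5). For distal iPou4f3-only sites the interval thus included 0. The shared sites, which had a peak with and without Gfi1, gave a larger difference than the iG+P-only sites.

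Peak strength in the lists also moved with the sign. The iGPA list had a median −log10 p of 11.1 and the iP+A list 7.72. With peaks of a −log10 p of at least 10 in every list, the difference at iPou4f3-only sites was 15.5 (13.9 to 17.2) and that at iG+P-only sites 17.2 (15.5 to 19). With all called peaks it was -5.52 and -8.41 (-9.15 to -7.67). With each of the 4 lists held to its 17082 peaks of highest −log10 p, both signs stayed, at -4.39 (-5.61 to -3.17) and 3.19 (1.90 to 4.48). Both differences thus kept their signs at equal list length. The sign at iPou4f3-only sites turned under the common threshold of strength, and that at iG+P-only sites turned with all called peaks.

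**Figure D4:**
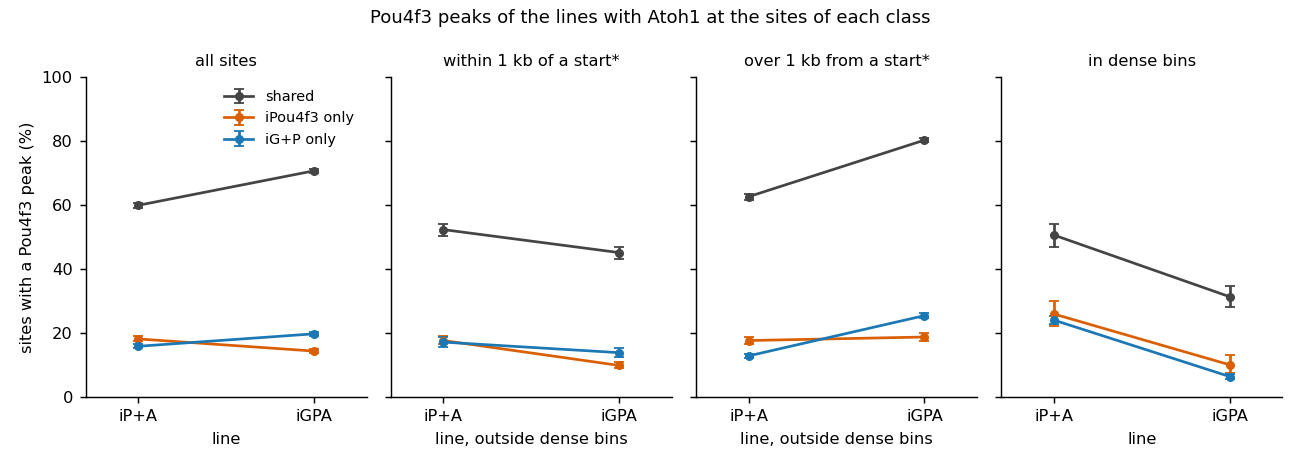
Share of sites of each class with a Pou4f3 peak in iP+A and in iGPA, for all sites, for promoter and distal sites outside dense bins, and for sites in dense bins. The vertical axis gives percent of sites and bars are exact 95% intervals. Distal shared sites go from 62.6% to 80.3% and distal iG+P-only sites from 12.8% to 25.4%, whereas all classes are lower in iGPA at promoters and in dense bins.

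The presence of the core went with the iGPA readout in each class. Among iG+P-only sites with a core but not the form of 16 letters, 14.8% (13.9 to 15.7) had a peak in iP+A and 35.0% (33.7 to 36.2) in iGPA. Without a core the shares were 16.3% (15.7 to 17.0) and 12.5% (11.9 to 13). Among iPou4f3-only sites they were 20.7% (18.9 to 22.6) and 25.7% (23.8 to 27.8) with a core, and 17.4% (16.5 to 18.3) and 10.9% (10.2 to 11.7) without. Shared sites went from 64.2% to 83.0% with a core and from 53.4% to 52.7% without. Sites with and without a core also differed in position. With a core, 6.84% or less of each class lay within 1 kb of a start. Without one, 39.8% of shared, 55.4% of iPou4f3-only and 21.0% of iG+P-only sites did. The contrast was not split by position or by dense bins, so a part of the core apart from position was not tested.

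The share of sites with a Gfi1 peak was limited by the Gfi1 list, which was short beside the 40747 sites. The paper reports that enrichment over input was relatively low with its Gfi1 antibody. In iGPA, where Gfi1 was precipitated in 1 library with 3012 peaks, a Gfi1 peak was present at 3.95% (3.63 to 4.29) of shared, 2.72% (2.39 to 3.09) of iPou4f3-only and 2.03% (1.83 to 2.25) of iG+P-only sites. Outside dense bins the order was the same, at 3.78%, 2.62% and 1.77%. At promoters outside dense bins the single-line classes were close, at 3.92% (3.31 to 4.60) of iPou4f3-only and 4.16% (3.41 to 5.01) of iG+P-only sites, and shared sites stood at 6.76%. Gfi1 was not precipitated in iG+P, so its binding there was not measured. Atoh1 peaks of iAtoh1 were present at 7.20% of shared, 9.50% of iPou4f3-only and 14.4% of iG+P-only sites, and outside dense bins at 4.70%, 7.71% and 7.44%.

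Sites were then assigned to the gene of the nearest transcription start. Of 22225 protein-coding genes, 28.5% were nearest to at least 1 shared site, 23.0% to at least 1 iPou4f3-only site, 29.4% to at least 1 iG+P-only site and 52.2% to a site of any class. Of 33887 genes of all types, 24.3% were nearest to a shared site, 18.4% to an iPou4f3-only site and 25.6% to an iG+P-only site. Among the genes of all types nearest to an iPou4f3-only site, 63.0% also had a site of the iG+P list. For those nearest to an iG+P-only site, 58.8% also had a site of the iPou4f3 list. The share of all genes with a site of each list was not computed, so these overlaps have no matched background. Genes with many sites outside dense bins included Auts2, a neurodevelopmental gene (13 shared, 4 iPou4f3-only and 6 iG+P-only sites), Ntm, a neural cell adhesion gene (10, 3 and 3), and Satb1, a chromatin organiser (10, 2 and 5). Gene length and spacing were not accounted for, and each list is read against all protein-coding genes.

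Hair cell genes had shared sites at 24 of 48 genes (50%, 35.2 to 64.8), iPou4f3-only sites at 12 (25%, 13.6 to 39.6) and iG+P-only sites at 26 (54.2%, 39.2 to 68.6). Against the backgrounds of 28.5%, 23.0% and 29.4%, the first and the last lay above and the iPou4f3-only share lay near. Shares above background in those classes were not particular to hair cell genes. Ribosomal protein genes had shared sites at 50.9% of genes. Notch pathway and axon guidance genes had iG+P-only sites at 67.9% and 68.2%. Pou4f3 itself had 7 shared sites, 2 iG+P-only sites and none of iPou4f3 only, and the lower of the 2 fold enrichments at its strongest shared site was 11.9. The iG+P peaks there include 2 summits in Pou4f3 exons, which the cassette also carries, so DNA of the transgene and of the locus cannot be told apart in the exons. Myo6, the unconventional myosin of the hair bundle base, had 4 shared sites, and the strongest lay 0.378 kb from its start with fold enrichments of 8.80 and 9.19. Ikzf2, a regulator of outer hair cells, had 3 shared sites, with 7.73 and 7.01 at the strongest.

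Other hair cell genes differed more between the lines. Pcdh15, the protocadherin of the tip link, had 11 iG+P-only sites, 1 iPou4f3-only site and no shared site, and none of its fold enrichments passed 3.39. Grxcr1, needed for hair bundle growth, had 6 iG+P-only sites and 1 shared site, including an iG+P peak of 3.72 at its promoter that had a Pou4f3 peak in iGPA and not in iP+A. Atoh1 had 6 iG+P-only sites, 5 of them between -74.8 and -68.3 kb from its start, where a shared and an iPou4f3-only site also lay. Xirp2, an actin-binding gene of the hair cell, had 3 iPou4f3-only, 2 iG+P-only and 1 shared site, and Calb2, which encodes calretinin, had a single iPou4f3-only site with a fold enrichment of 3.81. The differences between lines at these genes were differences between peaks of low fold enrichment. The sequences at the Myo6 and Grxcr1 sites are shown with those of other list members, chosen after their values were seen.
Shared, Myo6 (chr9:80013175-80013274): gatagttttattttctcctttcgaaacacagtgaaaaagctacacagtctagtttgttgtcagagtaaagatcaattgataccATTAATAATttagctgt
iG+P only, Grxcr1 (chr5:68720269-68720368): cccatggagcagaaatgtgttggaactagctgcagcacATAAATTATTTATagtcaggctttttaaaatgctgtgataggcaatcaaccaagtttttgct
Shared, Nefl (chr14:68656943-68657042): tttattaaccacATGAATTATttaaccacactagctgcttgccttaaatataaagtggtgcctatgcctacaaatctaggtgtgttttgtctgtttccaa
iPou4f3 only, Id2 (chr12:25963058-25963157): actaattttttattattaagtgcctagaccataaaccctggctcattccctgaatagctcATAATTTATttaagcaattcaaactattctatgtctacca
iG+P only, Nanog (chr6:122659245-122659344): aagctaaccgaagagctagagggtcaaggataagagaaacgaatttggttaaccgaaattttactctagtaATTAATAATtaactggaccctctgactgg

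Sensory neuron and neuronal genes had shared sites at 28 of 49 genes (57.1%, 42.2 to 71.2), iPou4f3-only sites at 16 (32.7%) and iG+P-only sites at 23 (46.9%). Nefl, the light neurofilament gene, had 5 shared sites between -62.3 and -18.4 kb from its start and no other, and each of the 5 held a core and a Pou4f3 peak in iGPA. Ebf1, a helix-loop-helix factor, had 6 shared sites, and Pou4f1, the paralogue of Pou4f3 in sensory neurons, had 5. Ebf3 had 5 iPou4f3-only, 4 shared and 4 iG+P-only sites, and Isl1, a LIM-homeodomain factor, had 4, 2 and 1.

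Otic and LIM-homeodomain regulators had shared sites at 17 of 35 genes (48.6%), iPou4f3-only sites at 13 (37.1%, 21.5 to 55.1) and iG+P-only sites at 19 (54.3%). Eya1, a transcriptional coactivator with phosphatase activity needed for otic development, had a shared site at -38.5 kb with 15.3 and 17.8 beside 5 iG+P-only sites of 3.94 or less. Lmx1b had 5 shared sites, the strongest with 17.6 and 18.8, and Lmo4 had 7.

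The Notch pathway had shared sites at 15 of 28 genes (53.6%), iPou4f3-only sites at 7 (25%) and iG+P-only sites at 19 (67.9%, 47.6 to 84.1). Jag1, a Notch ligand, had 4 shared and 3 iPou4f3-only sites and none of iG+P only. Hes1, an effector of Notch signalling, had 3 iPou4f3-only and 2 iG+P-only sites and no shared site, with 4 of the 5 summits within 1 kb of a start and fold enrichments from 2.41 to 2.84. Hey2 had 3 and 1. Axon guidance genes had the highest shares in every class, with 31, 29 and 30 of 44 genes (70.5%, 65.9% and 68.2% for shared, iPou4f3-only and iG+P-only sites). Plxna2, a semaphorin receptor, had 9 shared sites with up to 14.7 and 12.9. Sema5b, a semaphorin, had 12 iG+P-only sites, 1 shared and 1 iPou4f3-only, and Robo1, a Slit receptor, had 11, 6 and 6.

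**Figure D5:**
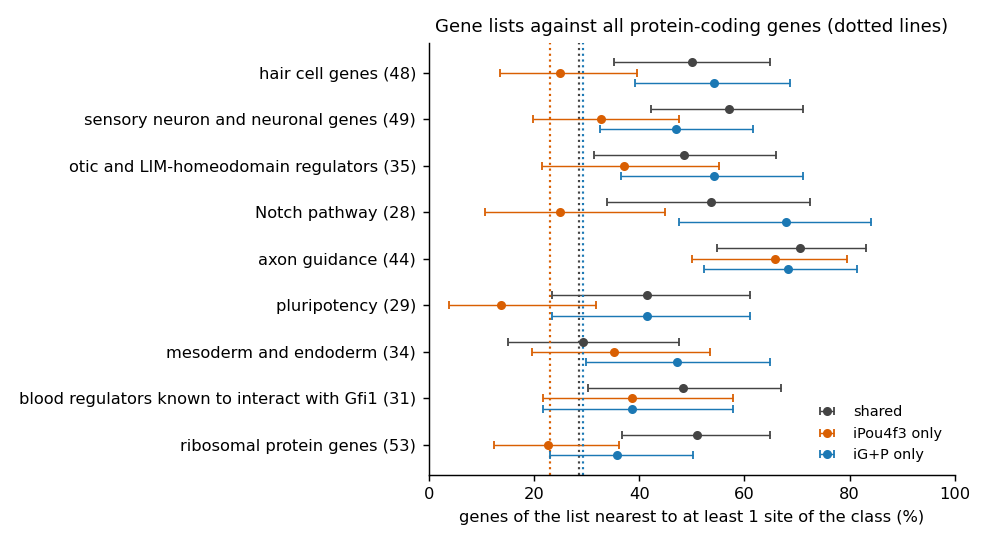
Share of the genes of each list that were nearest to at least 1 site of a class. The horizontal axis gives percent, points are shares with exact 95% intervals, numbers in brackets are genes matched and dotted lines are the same share over all protein-coding genes (28.5% shared, 23.0% iPou4f3 only, 29.4% iG+P only). Axon guidance genes lie farthest above all 3 lines, and hair cell and Notch genes, both at 25%, lie near the iPou4f3-only line.

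Genes of early and other lineages were mixed. Pluripotency genes had shared sites at 12 of 29 genes (41.4%), iPou4f3-only sites at 4 (13.8%, 3.89 to 31.7) and iG+P-only sites at 12 (41.4%). Nanog, a core pluripotency factor, had 4 iG+P-only sites inside or beside the gene, of fold enrichments 2.41 to 3.61, and 2 shared sites downstream, at 1 of which iG+P had 6.90 and iPou4f3 3.21. Klf4 had 2 shared sites. Mesoderm and endoderm genes had sites at 10, 12 and 16 of 34 genes (29.4%, 35.3% and 47.1%). Ribosomal protein genes had shared sites at 27 of 53 genes (50.9%), iPou4f3-only sites at 12 (22.6%) and iG+P-only sites at 19 (35.8%), and 74.3% of those shared sites lay within 1 kb of a start.

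Blood regulators that interact with Gfi1 had shared sites at 15 of 31 genes (48.4%) and single-line sites at 12 of each kind (38.7%, 21.8 to 57.8). The list held 23 iPou4f3-only and 32 iG+P-only sites. Its genes with the most iPou4f3-only sites were Id2, Id1 and Id3, which encode dominant-negative helix-loop-helix proteins. Id1 had 4 iPou4f3-only sites, no iG+P-only site and 1 shared site, Id3 had 3, 0 and 1, and Id2 had 5, 2 and 2. The shared site of Id3 had fold enrichments of 5.71 in iPou4f3 and 6.02 in iG+P. The strongest shared site of Id2 had 4.64 and 5.14, and the shared site of Id1 had 2.75 and 2.52. Of the iPou4f3-only sites of these 3 genes, those of Id1 had fold enrichments from 2.24 to 3.61 and those of Id3 from 2.85 to 3.67, and the strongest, at Id2, had 4.04. Hdac2, a histone deacetylase, had 3 shared sites and no other. The locus of Gfi1, which is also carried by the iG+P cassette, had 2 iPou4f3-only sites in its exons, with 3.45 and 2.50. It also had 1 iG+P-only site with 2.63, which lay in an exon and within 1 kb of the start, and 1 shared site. As at Pou4f3, DNA of the cassette and of the locus cannot be told apart in the exons for iG+P.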

How the data were processed

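Sample groups came from the titles. Per the labels and methods, the authors checked reads with FastQC and MultiQC, trimmed them with Trimmomatic, aligned them to mm9 with Bowtie2, removed duplicates with Picard, filtered with SAMtools (mapping quality of at least 40) and bedtools (blacklisted regions), and called peaks with MACS2 on merged ChIP against merged input libraries. deepTools was used for coverage. Versions were not given in the sources used here. The deposited fold enrichment is the authors' ratio at the summit, and −log10 p is the peak caller's value in the deposited files. The deposited summit lists hold positions and a signal column whose definition is not stated, which was not used, and the authors' filter from called to listed peaks is not stated.

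Summits were joined in 300 bp windows sharing 1 bp. Genes, starts and UTRs were those of GENCODE on NCBIM37, the assembly of mm9. Sequence of that build was searched in 250 bp around summits and at 1000 bp to each side, on both strands. Words of 12 letters were counted in the central 100 bp of these windows. A tandem repeat had at least 80% self-match over 100 bp at a unit of up to 12 bp. Local background was solved from fold and −log10 p (tolerance 0.002). Differences over the same sites have Wald intervals for matched shares. Named sites were the 5 of highest fold in each class outside tandem repeats. Named genes were the up to 3 with most sites per list and class, the 5 with most sites per class, and Pou4f3, Gfi1 and Atoh1. The members, lists and patterns were chosen with earlier results of these data known. ATNATTNAT, the 16-letter form, the dense bins and the genes whose sequence is shown were chosen from these data. Scripts (Python 3.11.15, pandas 2.3.3, SciPy 1.17.1, pysam 0.24.0) were tested on simulated data. Alternatives were other windows, peak thresholds, list lengths, promoter distances and patterns, and sites outside dense bins. Some sites and genes that the rule named are not reported here.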

Additional observations from a re-analysis of the deposited data

Results flagged for a closer look

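Peaks that the authors called but did not keep were outside the main comparison. Such a dropped peak of iG+P shared a 300 bp window with 5.95% of iPou4f3-only sites (507 of 8514), and a dropped peak of iPou4f3 with 5.31% of iG+P-only sites (975 of 18367). At these sites the other line had signal that passed the peak caller, so the class rests on the later filter.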

How the results depend on the processing

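The order of the classes by promoter share and by Pou4f pattern share was the same under every alternative, and the values moved as follows, with classes in the order shared, iPou4f3 only, iG+P only. With 1000 bp windows, 67.7% of iPou4f3 and 49.5% of iG+P sites were shared, promoter shares were 21.7%, 39.4% and 11.9%, pattern shares 51.1%, 29.0% and 40.2%, and the iGPA minus iP+A difference at iG+P-only sites was 5.27 points. With a −log10 p of at least 10 there were 5715 shared sites (57.6% of iG+P sites), promoter shares of 11.2%, 37.4% and 9.81%, pattern shares of 60.6%, 38.3% and 41.5%, and differences of 15.5 (sign turned) and 17.2 at iPou4f3-only and iG+P-only sites. With all called peaks the values were 62.7% and 42.3% shared, 22.7%, 46.6% and 14.6% promoter, 45.2%, 22% and 28.8% pattern, and differences of -5.52 and -8.41 (sign turned). At equal list length they were 52.6% and 52.7% shared (near each other by construction, since both lists then have the same length), 16.6% and 13.1% promoter in shared and iG+P-only sites, 55.9%, 26.9% and 35.8% pattern, and differences of -4.39 and 3.19 (signs kept). Promoter shares were 34.7%, 56.0% and 32.9% within 5 kb, and 18.9%, 42.3% and 13.7% with protein-coding starts. Pattern shares were 10.6%, 3.93% and 5.49% with no mismatch. The cause of the turned signs was not tested.

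The remaining alternatives were chosen after seeing the data. ATNATTNAT gave 57.6%, 22.4% and 31.5%. Without 1 Mb bins of 60 or more sites, 47.7% of iG+P sites were shared, promoter shares of the single-line classes were 45.9% and 17.6%, pattern shares of shared and iG+P-only sites 54.3% and 40.8%, and the iG+P-only difference 9.80. Without bins of 40 or more they were 48.6%, 45.3% and 16.9%, 55.0%, 26.3% and 43.0%, and 11.1. Over 1 kb from a start the differences at iPou4f3-only and iG+P-only sites were -0.652 and 5.48, and without dense bins 1.11 (sign turned) and 12.6. No paired analysis was possible because the replicates were merged before peaks were called, and for the same reason leaving out a replicate gave no value.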
